A study of Mus musculus with 2 samples.

Results

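The 8 genes described here encode the cytokines and receptors of the IL-12 family together with IL-15, its presenting receptor chain and IL-10. They are Il12b, Il27, Ebi3, Il15, Il15ra, Il10, Il12rb1 and Il12rb2, chosen by symbol, and each of the 8 had 1 entry among the 27998 genes of the feature table. They were followed through 2 droplet single-cell RNA libraries of live CD45+ cells, the leukocyte gate, sorted from B16F10 tumors, a transplanted mouse melanoma grown under the skin of C57BL/6 hosts and taken on day 14. The control library came from Usp18f/f mice, whose Usp18 gene carries loxP sites but no Cre. The other came from Usp18f/f LysM-Cre mice, in which Cre is driven from the Lyz2 locus of monocytes, macrophages, neutrophils and some dendritic cells (DC). Usp18 removes the ubiquitin-like protein ISG15 and restrains signalling from the type I interferon receptor. Cells of 4 tumors were pooled into each library, so there was 1 library per group, no replicate and no test between the groups. Intervals are exact 95% intervals that cover counting error only, and they say nothing of the spread between mice.

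Cytokines of the IL-12 family are pairs of chains. The p40 chain made from Il12b joins the Il12a product to form IL-12, or the Il23a product to form IL-23, and Ebi3 joins the Il27 product to form IL-27. IL-12 from dendritic cells drives interferon-gamma production in T and NK cells through a receptor made of Il12rb1 and Il12rb2. IL-15 is held on the surface of the producing cell by Il15ra and is shown to neighbouring T and NK cells, which it keeps alive and cytotoxic. IL-10, a product of macrophages and regulatory T cells, restrains antigen-presenting cells.

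RefSeq promoter windows (GRCm38.p6) were at hand for 4 of the 8 genes, Il12b, Ebi3, Il15ra and Il12rb2. The remaining genes are Il27, Il15, Il10 and Il12rb1. Each window below is the 250 bases before the start, read 5′ to 3′ on the gene's strand, with every match to a searched motif in capitals. They are shown to set the 3 genes that were highest or near the highest in migratory DC beside the receptor gene that was highest in control NK cells. The Il12b window lies at chr11:44399813-44400062 on the plus strand, Ebi3 at chr17:55952373-55952622 on the plus strand, the first Il15ra window at chr2:11705043-11705292 on the plus strand, and Il12rb2 at chr6:67376189-67376438 on the minus strand.
Il12b: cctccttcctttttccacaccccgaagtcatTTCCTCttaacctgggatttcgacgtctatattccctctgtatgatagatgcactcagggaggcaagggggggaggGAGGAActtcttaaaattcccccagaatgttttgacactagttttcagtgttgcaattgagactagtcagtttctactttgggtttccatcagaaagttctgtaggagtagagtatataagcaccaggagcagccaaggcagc
Ebi3: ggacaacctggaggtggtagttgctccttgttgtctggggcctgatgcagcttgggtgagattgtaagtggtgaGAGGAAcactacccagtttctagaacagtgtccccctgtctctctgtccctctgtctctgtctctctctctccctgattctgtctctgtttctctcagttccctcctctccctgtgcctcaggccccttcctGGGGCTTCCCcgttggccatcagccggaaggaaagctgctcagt
Il15ra: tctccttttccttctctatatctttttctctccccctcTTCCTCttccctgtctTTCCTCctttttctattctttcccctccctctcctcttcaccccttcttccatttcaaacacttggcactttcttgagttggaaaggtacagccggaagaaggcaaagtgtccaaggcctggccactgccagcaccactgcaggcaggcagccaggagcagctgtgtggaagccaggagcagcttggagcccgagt
Il12rb2: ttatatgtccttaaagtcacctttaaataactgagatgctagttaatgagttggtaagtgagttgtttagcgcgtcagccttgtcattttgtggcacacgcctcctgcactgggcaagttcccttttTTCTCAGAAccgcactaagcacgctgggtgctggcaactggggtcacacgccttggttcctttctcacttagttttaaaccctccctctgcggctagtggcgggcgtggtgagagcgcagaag

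The searched motifs, on both strands, were the interferon-stimulated response element core, GAAA followed after 2 bases of any kind by GAAA, the STAT site GAS as TTCNNNGAA, AP-1 as TGANTCA, the PU.1 core GAGGAA, the C/EBP core TTGNNNAA, and NF-kB by name. Of 32851 promoter windows of this length, 2.98%, 7.02%, 6.75%, 23.3%, 33.3% and 7.25% held a match to them, in that order. The Il12b window held 2 PU.1 cores, PU.1 being a factor of myeloid cells. The Ebi3 window held 1 PU.1 core and 1 NF-kB match, 44 to 35 bases before the start, and the first Il15ra window held 2 PU.1 cores. A second Il15ra window, at chr2:11705462-11705711 on the plus strand and not printed, held 1 AP-1 match and no PU.1 core. The Il12rb2 window held 1 GAS match and no PU.1 core. None of the 4 printed windows held the interferon-stimulated response element core. A match is a run of letters, not a bound site.

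Per barcode the median depth was 2600 UMIs (unique molecules) over 7754 control barcodes, 43412346 UMIs in all, and 4455 over the 6063 barcodes labelled knockout, 48167632 UMIs in all. Filtering left 6646 and 5451 cells. They formed 24 joint clusters, of which 23 were named from marker genes, and every class name means "like" that cell type. Of the cells with either Xist or Y-linked transcripts alone, Xist cells made up 36.6% of the control pool and 86.1% of the other, so the pools differed in sex as well as genotype. Ratios for each sex are given beside the pooled ones where the direction turned. Across the libraries 8 barcode sequences were shared, 5 of them among kept cells. Neutrophils numbered 545 and 32 cells, and monocytes and macrophages together, the mononuclear phagocytes, made up 27.3% and 49.0% of kept cells.

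Usp18 itself went against the label. Its level in mononuclear phagocytes was 18.1 CPM (UMIs per 1000000 UMIs of the class) in control cells against 97.2 CPM in those labelled knockout, giving a ratio of 5.36 (interval 4.70 to 6.13). The ratio was 6.68 in Xist cells and 1.75 in Y-linked cells. The labels do not say which exons are flanked by loxP, and a 3′ library reads only the end of the transcript, so Usp18 UMIs do not check the deletion. Lyz2, which carries Cre, went with the label, at 9292 CPM against 17.7 CPM, 526-fold lower.

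Il12b (ENSMUSG00000004296, chromosome 11, 44400063 to 44414033, plus strand, GRCm38) was almost a migratory DC transcript. These cells, named by Ccr7, Fscn1, Cacnb3 and Ccl22, are mature dendritic cells equipped to travel to lymph nodes. They numbered 132 control cells and 168 labelled knockout, and held 315 of 318 Il12b UMIs (99.1%) and 242 of 286 (84.6%). B cells, NK cells, neutrophils and plasmacytoid DC had no Il12b UMI in either library.

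Within migratory DC the Il12b level was 369 CPM (329 to 412) in control cells against 195 CPM (172 to 222) in those labelled knockout, giving a ratio of 0.53 (0.45 to 0.63). The share of migratory DC with an Il12b UMI did not follow the level: it was 22.0%, 29 cells, and 24.4%, 41 cells. With each cell thinned to 1000 UMIs it was 11.6% and 13.6%. The difference in level sat in few cells. In the control library 13 cells with at least 10 UMIs held 90.5% of the Il12b UMIs, and in the library labelled knockout 8 such cells held 56.6%. The highest cell had 77 UMIs in the first and 49 in the second, and without it in each library the log2 ratio was -0.86, against -0.92 with it. With every cell weighted equally the log2 ratio was -0.01.

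**Figure D1:**
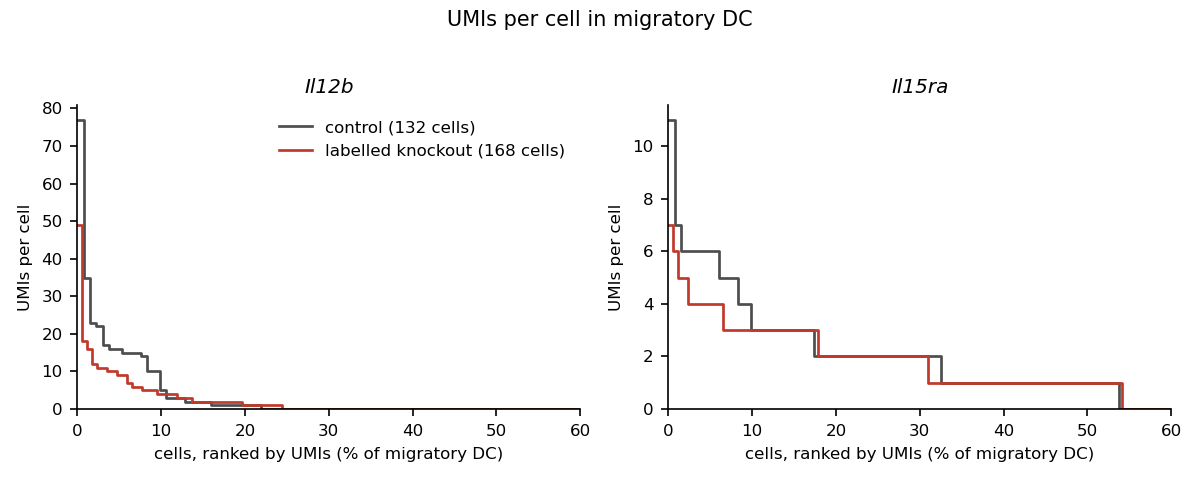
UMIs per cell of Il12b (left) and Il15ra (right) in migratory DC, cells ranked from the highest and shown as a percent of the class, with 1 line per library (132 control cells, 168 cells of the library labelled knockout). The Il12b line of the control library starts at 77 UMIs and lies above the other in its highest cells, while the lines reach 0 at 22.0% of control cells and 24.4% of the others.

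The lower Il12b level was not seen in both sexes. Among migratory DC with Y-linked transcripts, 71 and 17 cells, Il12b stood at 498 CPM and 246 CPM, a ratio of 0.49 (0.33 to 0.71). Among those with Xist, 20 and 117 cells, it stood at 122 CPM and 209 CPM, a ratio of 1.71 (1.00 to 3.2), in the other direction. The part of sex in the pooled ratio was not tested.

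Outside migratory DC the Il12b UMIs of the library labelled knockout came from a handful of cells. All 21 in cDC2 (DC named by Cd209a and Clec10a) were in 1 cell, and 8 of 10 in cDC1 (the cross-presenting DC, named by Xcr1 and Clec9a) were in 1 cell. Mononuclear phagocytes had 0 UMIs in 1815 control cells, which allows up to 0.215 CPM. In the library labelled knockout 11 UMIs in 6 of 2669 cells gave 0.504 CPM. That is 2.35-fold above the control limit, a figure that leaves out the counting error of the 11 UMIs. The partner chains were hardly found beside Il12b: Il12a had 1 and 0 UMIs in migratory DC and Il23a 0 and 1, none of them in a cell with an Il12b UMI. Il12a was found instead in B cells, at 28.3 and 26.2 CPM, and in plasmacytoid DC, at 18.4 and 27.0 CPM.

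Il27 (ENSMUSG00000044701, chromosome 7, 126589010 to 126594941, minus strand), the chain that joins Ebi3 in IL-27, was a sparse monocyte transcript. Monocytes held 40 of 59 Il27 UMIs in the control library, at 5.26 CPM (3.76 to 7.16), and 116 of 171 in the library labelled knockout, at 9.91 CPM (8.19 to 11.9). Over all mononuclear phagocytes the level was 3.65 CPM and 6.70 CPM, a ratio of 1.83 (1.32 to 2.57), short of 2-fold. The higher level was seen in Xist cells, with a ratio of 2.24 (1.24 to 4.46). In Y-linked cells 28 UMIs stood against 12, a ratio of 0.83 (0.39 to 1.69). In monocytes alone Il27 did not turn: the ratio was 1.89 (0.99 to 4.06) in Xist cells and 1.70 (0.66 to 3.98) in Y-linked cells, the latter on 22 and 8 UMIs, and both intervals include no change. Y-linked mononuclear phagocytes were 553 monocytes and 289 macrophages in the control library, but 131 and 221 in the other. The class that follows monocytes in the mean of both libraries, cDC1, owed its place to 1 cell of the library labelled knockout that held all 17 of its UMIs. Macrophages were lower than monocytes, at 1.73 and 2.97 CPM.

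Ebi3 (ENSMUSG00000003206, chromosome 17, 55952640 to 55957022, plus strand), the chain shared by IL-27 and IL-35, was found over a far wider range of cells and hardly differed between the libraries. It stood at 43.3 CPM (30.5 to 59.7) and 48.4 CPM (37.0 to 62.3) in migratory DC, at 29.9 and 28.5 CPM in macrophages, at 26.5 and 25.6 CPM in cDC2, and at 22.8 and 22.7 CPM in cDC1. Monocytes came next, at 21.2 and 17.7 CPM. The interval of migratory DC lay above that of monocytes in both libraries, and above those of macrophages, cDC1 and cDC2 in the library labelled knockout alone. The ratio was 1.12 (0.73 to 1.73) in migratory DC and 0.90 (0.79 to 1.04) in mononuclear phagocytes, and both intervals include no change. In migratory DC the ratio was 2.13 (0.69 to 10.7) in Xist cells, on 3 and 48 UMIs, and 0.80 (0.24 to 2.15) in Y-linked cells, on 24 and 5. Within sexes the mononuclear phagocyte ratio was 0.75 (0.59 to 0.96) in Xist cells and 1.22 (0.94 to 1.56) in Y-linked cells. Control neutrophils had 32 Ebi3 UMIs, 46.8 CPM, and the 32 neutrophils of the library labelled knockout had none, which at their depth allows up to 47.5 CPM.

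Cells with an Il27 UMI also held Ebi3 somewhat more often. Of control mononuclear phagocytes with Il27, 13 of 50 (26.0%) had an Ebi3 UMI, against 15.6% of those without. In the library labelled knockout the shares were 18.9% of 122 cells and 14.9%. The Il27 cells had median depths of 6701 and 6935 UMIs and the others 6448 and 5937. At such depths a cell can hold a transcript and show no UMI of it, so these shares describe detection and not production. Il12b and Ebi3 were not found together more often than apart in migratory DC, where 13.8% and 19.5% of Il12b cells had Ebi3, against 18.4% and 23.6% of the others.

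Il15 (ENSMUSG00000031712, chromosome 8, 82331632 to 82403222, minus strand) was highest in control neutrophils, at 218 CPM (184 to 256), where 103 of 545 cells (18.9%) had a UMI at a median depth of 1135 UMIs. Thinned to 1000 UMIs, 17.7% of control neutrophils had an Il15 UMI, against 3.88% of control migratory DC, 1.99% of control mononuclear phagocytes and 0.216% of control B cells. The 32 neutrophils of the library labelled knockout had 7 Il15 UMIs, 111 CPM (44.6 to 229). Migratory DC followed, at 50.3 and 53.3 CPM, a ratio of 1.06 (0.71 to 1.59), with 0.72 (0.33 to 1.77) in Xist cells and 0.84 (0.25 to 2.25) in Y-linked cells.

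In mononuclear phagocytes Il15 was about 2-fold higher in the library labelled knockout: control cells stood at 14.0 CPM (12.1 to 16.1) against 29.1 CPM (26.9 to 31.5), a ratio of 2.08 (1.77 to 2.46). At full depth most of the difference lay in monocytes, at 13.9 and 37.9 CPM, a ratio of 2.72 (2.20 to 3.40). The share of monocytes with a UMI was 7.79% and 16.8%, or 2.40% and 3.88% once thinned to 1000 UMIs. In B cells, with median depths of 1494 and 1761 UMIs against 5782 and 5635 in monocytes, the unthinned share was 0.347% and 0.228%. Macrophages stood at 14.0 and 18.9 CPM, a ratio of 1.35 (1.04 to 1.75). With cells thinned to 1000 UMIs the log2 ratio was 0.78 in monocytes, on 30 and 73 UMIs, against 1.44 at full depth. In macrophages it was 1.07, on 6 and 18 UMIs, against 0.43.

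Il15ra (ENSMUSG00000023206, chromosome 2, 11705290 to 11734317, plus strand) moved with its ligand in monocytes and not in migratory DC. It was highest in migratory DC, at 205 CPM (176 to 238) and 154 CPM (133 to 178), a ratio of 0.75 (0.61 to 0.93), with 53.8% and 54.2% of cells positive. In mononuclear phagocytes it stood at 7.24 CPM (5.89 to 8.79) and 15.2 CPM (13.6 to 17.0), a ratio of 2.10 (1.68 to 2.66). In monocytes the levels were 9.20 and 22.3 CPM, a ratio of 2.42 (1.86 to 3.2). T cells, at 18.2 and 16.2 CPM, and NK cells, at 19.6 and 13.9 CPM, held it at levels whose intervals overlapped between the libraries, and B cells were at 3.98 and 3.74 CPM.

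Both genes of the IL-15 pair split by sex in mononuclear phagocytes and in monocytes, while Il15 did not in macrophages. In Xist mononuclear phagocytes Il15 had a ratio of 2.71 (1.97 to 3.81) and Il15ra of 2.99 (1.90 to 4.97). In Y-linked cells the ratios were 0.87 (0.61 to 1.22) and 0.82 (0.47 to 1.39), so the higher levels of the pool were not seen there. In monocytes the Il15 ratio was 4.92 (2.94 to 8.87) in Xist cells and 0.67 (0.29 to 1.35) in Y-linked cells. For Il15ra these were 3.24 (1.86 to 6.19) and 0.91 (0.34 to 2.08). The Y-linked monocytes of the library labelled knockout numbered 131, against 553 in the control library, and held 9 Il15 UMIs and 7 Il15ra UMIs. Y-linked macrophages numbered 221, against 289. Macrophage Il15 ratios were 1.19 (0.77 to 1.89) in Xist cells and 1.04 (0.66 to 1.61) in Y-linked cells. In migratory DC the Il15ra ratio was 1.22 (0.71 to 2.24) in Xist cells and 0.68 (0.40 to 1.10) in Y-linked cells. The difference between the sexes was not tested, and sex and genotype cannot be separated further with 1 pool per group.

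Single cells of the library labelled knockout held the IL-15 pair together. Of its Il15-positive monocytes, 23.9% of 293 had an Il15ra UMI, against 6.74% of Il15-negative monocytes. In control monocytes the shares were 5.21% of 96 and 5.28%. Il15-positive migratory DC had Il15ra in 75% and 77.8% of cells in the control library and the library labelled knockout, and Il15-negative ones in 48.1% and 45.5%. The positive monocytes were a little deeper than the negative ones, with medians of 6525 and 5519 UMIs in the library labelled knockout and 6452 and 5706 in the control library. In migratory DC Il12b and Il15ra were also found together: 75.9% and 75.6% of Il12b cells had an Il15ra UMI, against 47.6% and 47.2% of the others. The Il12b cells were deeper, with medians of 7977 and 7394 UMIs against 5729 and 5872.

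Il10 (ENSMUSG00000016529, chromosome 1, 131019845 to 131024974, plus strand) had the largest ratio of the 7 measured genes in mononuclear phagocytes, and it was higher in both sexes. It stood at 3.58 CPM (2.66 to 4.72) in control cells against 12.3 CPM (10.9 to 13.9) in those labelled knockout, giving a ratio of 3.44 (2.54 to 4.76). The ratio was 2.60 (1.56 to 4.65) in Xist cells and 3.73 (2.23 to 6.39) in Y-linked cells. Both monocytes, at 3.68 and 15.8 CPM, and macrophages, at 3.47 and 8.31 CPM, were higher. The share of mononuclear phagocytes with an Il10 UMI was 2.15% and 6.48%, or 0.284% and 1.27% once thinned to 1000 UMIs. B cells had none in either library, which allows up to 1.33 and 3.74 CPM.

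The mononuclear phagocytes fell into 8 clusters, and their mix differed. The cluster led by Dmkn and Vcan (413 and 617 cells) and that led by Gas6 and Vcam1 (370 and 481) were large in both libraries, while the monocyte cluster led by Ccl24, Ccl7 and other chemokines held 148 and 529 cells. That chemokine cluster had the highest levels of the library labelled knockout among the mononuclear phagocyte clusters. They were 46.9 CPM for Il15, 29.2 CPM for Il15ra and 26.3 CPM for Il10, against 11.0, 9.57 and 5.15 CPM in its control cells. At resolution 2 a Ccl24 and Ccl7 cluster held 130 and 366 cells, and a separate cluster led by Ccl8, Kdr and Ddx4 held 9 and 195. Whether the chemokine cluster held the same mix of cells in each library was not tested. The Ppbp and Hspa1a cluster also differed in Il10, with 3 and 27 UMIs. In the Ace and Adgre4 cluster, the patrolling type of monocyte, Il10 stood at 21.7 and 19.0 CPM and Il15 had 4 and 1 UMIs. With 132 and 108 cells at a median of 3387.5 UMIs, these values do not show whether it followed the others. Without the chemokine cluster the log2 ratio over mononuclear phagocytes was 0.74 for Il15, 0.67 for Il15ra and 1.27 for Il10, against 1.06, 1.07 and 1.77 with it.

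**Figure D2:**
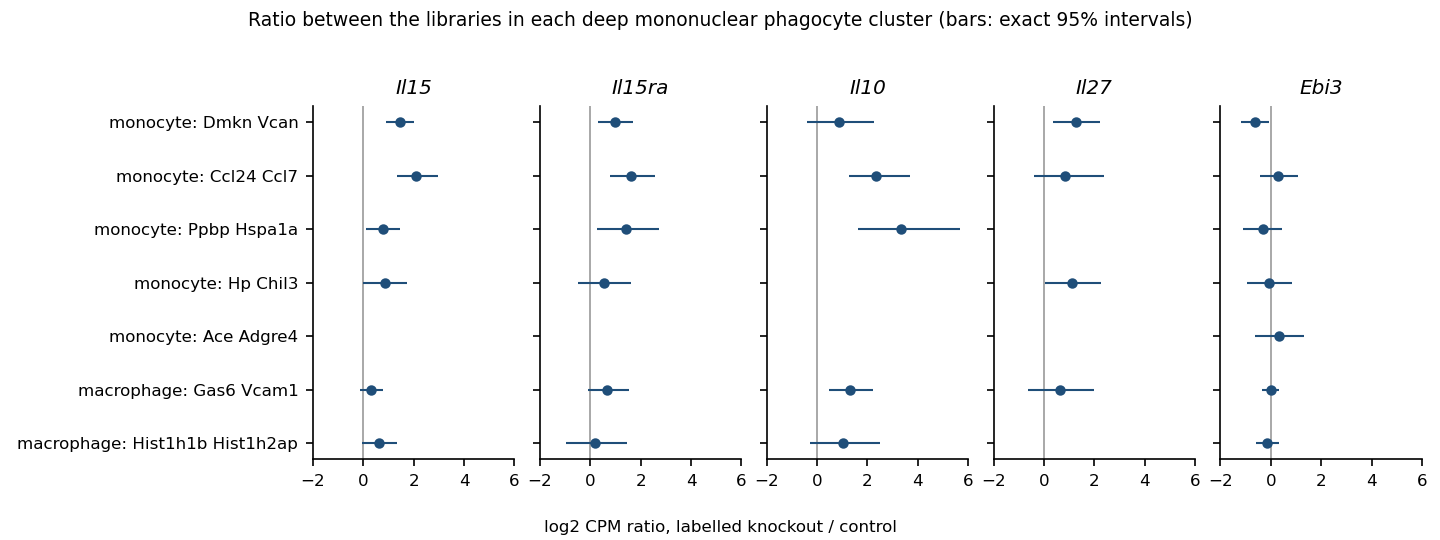
Log2 of the CPM ratio between the libraries (labelled knockout over control) of 5 genes in 7 mononuclear phagocyte clusters, each named by its class and 2 leading genes; bars are exact 95% intervals, and clusters with under 20 UMIs of a gene over both libraries are left blank. Il15, Il15ra and Il10 lie furthest to the right in the clusters led by Ccl24 and by Ppbp or Dmkn, and Ebi3 lies nearer to 0, below it in the Dmkn cluster; the shallow cluster led by Ccl8 (median 808.5 UMIs) is not drawn.

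In T cells Il10 stood at 9.49 CPM (6.72 to 13) and 26.2 CPM (20.6 to 33.0), a ratio of 2.76 (1.84 to 4.20), and was concentrated in the cluster led by Foxp3 and Ctla4, which mark regulatory T cells. There 24 UMIs in 191 control cells, 32.0 CPM, stood against 62 UMIs in 143 cells, 92.8 CPM. This ratio turned with sex: Xist T cells held 2 and 62 UMIs, and Y-linked T cells held 22 in 453 cells and 0 in 62 cells, a ratio of 0 with an interval up to 1.45. The T cell with the most Il10 UMIs held 4 in the control library and 13 in the other. The summed level of 10 macrophage markers in T cells, 92.4 and 306 CPM, moved with the ratio, and its part was not tested. The same Foxp3 cluster was where T cells held Ebi3, with 34 and 19 UMIs, 45.4 and 28.4 CPM, while the Cd8b1 and Gzmk cluster had no Ebi3 UMI in either library.

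**Figure D3:**
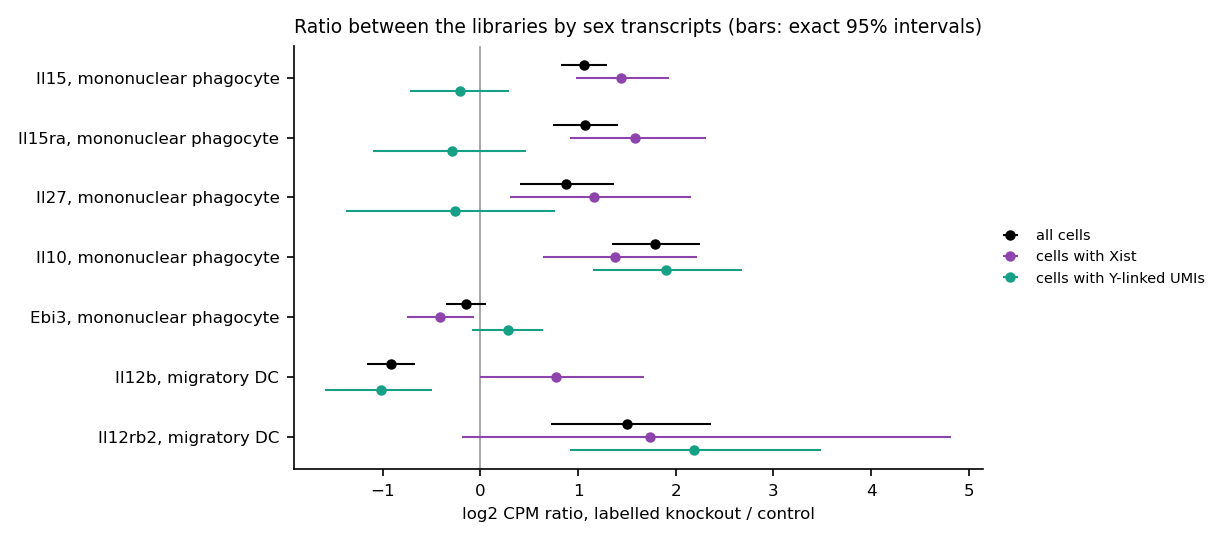
Log2 of the CPM ratio between the libraries (labelled knockout over control) in all cells, Xist cells and Y-linked cells, for 5 genes in mononuclear phagocytes and 2 in migratory DC; bars are exact 95% intervals. The Il10 and Il12rb2 points lie right of 0 in both sexes, whereas Il15, Il15ra and Il27 lie right of 0 in Xist cells and left of it in Y-linked cells, and Il12b does the opposite of its pooled value in Xist cells.

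Il12rb1 (ENSMUSG00000000791, chromosome 8, 70808449 to 70821424, plus strand), the receptor chain shared by IL-12 and IL-23, was highest in T cells, at 26.5 CPM (21.7 to 32.0) and 21.2 CPM (16.1 to 27.3), a ratio of 0.80 (0.57 to 1.11). NK cells stood at 14.0 and 19.0 CPM, with intervals that overlapped those of T cells. The NK-cell ratio was 2.77 (0.41 to 118) in Xist cells, on 1 and 12 UMIs, and 0.77 (0.02 to 5.97) in Y-linked cells, on 7 and 1. Among T cells the Foxp3 cluster was highest, at 61.4 and 37.4 CPM, and the Lef1 and Tcf7 cluster, with genes of resting T cells, had 3 and 0 UMIs. In Xist T cells the Il12rb1 ratio was 1.45 (0.78 to 2.86) and in Y-linked ones 0.62 (0.20 to 1.53). Mononuclear phagocytes held little, 1.93 and 4.03 CPM, a ratio of 2.09 (1.34 to 3.34). There the ratio was 2.85 (1.16 to 9.08) in Xist cells and 1.95 (0.58 to 6.50) in Y-linked cells, the latter on 7 UMIs in each library.

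Il12rb2 (ENSMUSG00000018341, chromosome 6, 67291318 to 67376188, minus strand), the chain that gives the IL-12 receptor its signalling, was highest in NK cells in the control library, at 67.1 CPM (49.5 to 89). In the library labelled knockout NK cells stood at 46.8 CPM (32.9 to 64.4), under migratory DC at 56.5 CPM, with intervals that overlapped. The NK-cell ratio was 0.70 (0.44 to 1.09), with 0.58 (0.27 to 1.35) in Xist cells and 1.40 (0.47 to 3.54) in Y-linked cells, the latter on 23 and 6 UMIs. The unnamed cluster, which carried T-cell markers and NK receptor genes of the Klra family, stood at 38.4 and 34.3 CPM. T cells were lower, at 6.25 and 12.9 CPM, a ratio of 2.07 (1.21 to 3.6). By cluster, 15 of the 36 T-cell UMIs of the library labelled knockout lay in the Cd8a, Pdcd1 and Tox cluster, which had 4 in the control library, and the Cd4 and Icos cluster stood at 19.4 and 28.8 CPM. Unlike Il12rb1, Il12rb2 was scarce in the Foxp3 cluster, with 2 and 5 UMIs. B cells had none.

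Migratory DC also held Il12rb2, at 19.9 CPM (11.6 to 31.9) in control cells against 56.5 CPM (44.0 to 71.4) in those labelled knockout, giving a ratio of 2.84 (1.65 to 5.15), in 10.6% and 20.8% of cells. It was higher in Xist cells, with 2 and 50 UMIs, a ratio of 3.33 (0.88 to 28.3), and in Y-linked cells, with 11 and 13 UMIs, a ratio of 4.56 (1.88 to 11.2). Transcripts of other cells moved with it. The summed level of 9 T-cell markers in migratory DC was 67.9 and 555 CPM, with all 9 detected in each library. That of 9 NK-cell markers was 44.5 and 121 CPM, with 4 detected in the control library and 7 in the other. Klra4 and Klra8 were at 0 in both, and Klrb1c, Klra7 and Gzma in the control library alone. Cells with at least 2 UMIs of these T- or NK-cell markers made up 10.6% and 25% of migratory DC. They held 17.6% and 44.3% of its Il12rb2 UMIs. Without those cells the Il12rb2 log2 ratio was 1.48, against 1.47 with them. Of the Il2rb UMIs of migratory DC in the library labelled knockout, 58 of 59 lay in those cells. The part of other cells' transcripts in the Il12rb2 ratio was not tested.

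**Figure D4:**
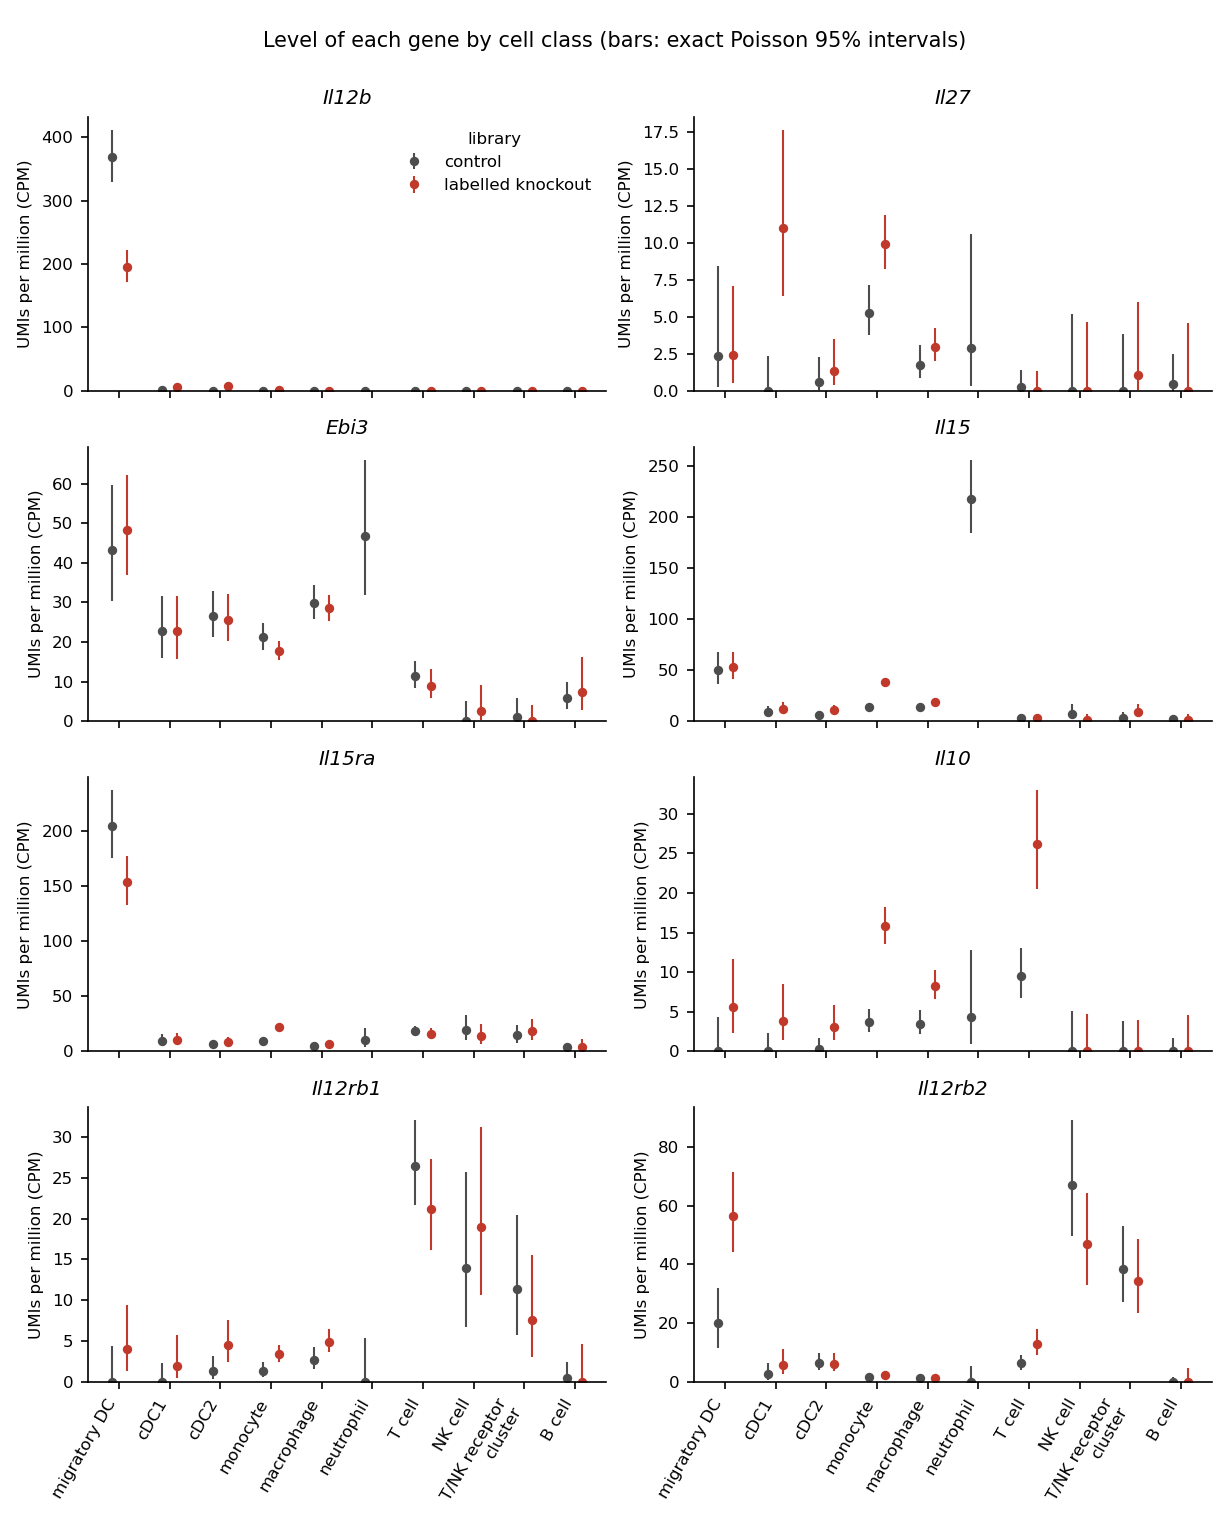
Level of each of the 8 genes, in CPM of the class total, in 10 classes and each library (control grey, labelled knockout red; bars are exact Poisson 95% intervals); the 32 neutrophils of the library labelled knockout are not drawn. Il12b and Il15ra peak in migratory DC, and in the control library Il15 peaks in neutrophils and Il12rb2 in NK cells; in the library labelled knockout Il12rb2 is highest in migratory DC, at 56.5 CPM.

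Set against all genes, 4 of the 7 members with at least 20 UMIs in mononuclear phagocytes were at least 2-fold higher in the library labelled knockout (Il10, Il15ra, Il15 and Il12rb1) and none was at least 2-fold lower, beside 3.19% and 1.60% of the 11864 genes with as many UMIs. Their median log2 ratio was 1.04, against -0.04 over those genes. Only Il10 stayed past 2-fold under all 16 alternatives, with log2 ratios from 1.01 to 1.94. Il15, Il15ra and Il12rb1 lay near 2-fold, and without cells that hold T- or NK-cell marker UMIs Il12rb1 had a log2 ratio of 0.92. Il12b had too few UMIs to be measured there. In migratory DC 1 of 5 measured members was higher, Il12rb2, beside 8.63% of genes, and none lower, beside 1.64%. In T cells 2 of 5 were higher, Il10 and Il12rb2, beside 2.92%, and none lower, beside 1.36%. The Il12rb2 call was lost in 8 of 12 alternatives, which gave log2 ratios from 0.55 to 2.26 against 1.04. In NK cells 0 of 3 were higher, beside 2.31%.

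Other genes of these pathways were counted in the same way, as descriptions of the 2 libraries. Of the 2 measured partner ligands, 0 differed by 2-fold in mononuclear phagocytes. In monocytes alone 1 of 2 was at least 2-fold higher, Il18, which acts with IL-12 on T and NK cells. It stood there at 29.8 and 69.4 CPM, a ratio of 2.33 (2.01 to 2.71). Over all genes of monocytes 4.44% were at least 2-fold higher and 1.83% at least 2-fold lower. Among 12 signalling genes in mononuclear phagocytes, 1 was at least 2-fold higher, Socs1, an inhibitor of cytokine signalling, at 11.3 and 32.6 CPM. Over all genes of that class 3.19% were at least 2-fold higher and 1.60% at least 2-fold lower. None of 10 regulators of the ligand genes differed by 2-fold in mononuclear phagocytes: Irf8 stood at 255 and 244 CPM and Irf1 at 42.8 and 65.0 CPM. Of 9 measured partner receptors, 2 were higher, Il2ra, with 18 and 123 UMIs, and Il2rb, with 27 and 130, but 93.1% of the Il2rb UMIs of the library labelled knockout lay in mononuclear phagocytes with at least 2 UMIs of T- or NK-cell markers.

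In the same cells 7 of 11 response genes of T and NK cells were at least 2-fold higher, beside 3.19% of genes. Among them were Gzmb, with 21 and 222 UMIs, and Ifng, with 7 and 73. The summed T-cell markers in mononuclear phagocytes were 27.3 and 63.2 CPM, and NK-cell markers 11.3 and 23.2 CPM, with all 9 of each detected. Their part in these counts was not tested. In migratory DC, 6 of 9 measured response genes were higher, Ifng the most, with 1 and 185 UMIs, and Prdm1 was lower, at 44.5 and 21.8 CPM. Over all genes of migratory DC 8.63% were at least 2-fold higher and 1.64% at least 2-fold lower. There, 4 of 9 partner receptors were higher (Il2rb, Il27ra, Il18r1 and Il18rap). So was 1 of 12 signalling genes, Cish, a target of cytokine signalling, at 18.7 and 64.6 CPM. Of 10 regulators of the ligand genes 1 was higher, Maf, a regulator of Il10, at 23.4 and 86.4 CPM. These genes moved with the T-cell marker levels given for migratory DC, and with summed macrophage markers of 243 and 711 CPM and monocyte markers of 335 and 1382 CPM there. The part of those markers was not tested.

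In the cells that receive the cytokines, Gzmb, the cytotoxic granule protease, stood at 234 and 583 CPM in T cells, a ratio of 2.49 (2.30 to 2.70), and at 351 and 1006 CPM in NK cells, a ratio of 2.87 (2.48 to 3.32). Of 11 response genes in T cells, Gzmb and Prf1 were at least 2-fold higher, beside 2.92% of genes, and Ifng stood at 118 and 213 CPM. In NK cells Gzmb and Lag3 were, beside 2.31% of genes, with Lag3 on 6 and 14 UMIs. None of the 9 measured partner receptors and 12 signalling genes differed by 2-fold in T cells. In NK cells the IL-27 receptor chain Il27ra, at 54.5 and 26.5 CPM, and the kinase Tyk2, at 69.9 and 32.9 CPM, were at least 2-fold lower, beside 4.41% of genes.

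The genes whose pattern was most like each member were found by Pearson's r of log2(CPM + 5) over 20 points, 10 classes in each library. Classes with under 100 cells in either library were left out, among them plasmacytoid DC and neutrophils, the class where control Il15 was highest. The points share cells within a library and depth within a class, so r is a description. Il12b was nearest to Mmp25 (r = 0.99), Slc22a23 and Syn3, Il15ra to Ndnl2 (0.96), Pcgf5 and Socs2, and Ebi3 to Kcnk6 (0.94), Cxcl16 and Ccdc28b. Il15 was nearest to Il18bp (0.92), a decoy for IL-18, and Il27 to Pi4k2a (0.79), Dhx58 and Oasl1, the latter both interferon-induced genes. Il10 was nearest to F830016B08Rik (0.87), Csf1 and Iigp1, Il12rb1 to Qsox1 (0.94), Tox and Tnfsf10, and Il12rb2 to Klre1 (0.91), Ccl5 and Serpinb9.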

How the data were processed

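Each library held cells of 4 pooled tumors. The deposited values were raw UMI counts per gene and barcode, made with Cell Ranger 3.0.1 on mm10, per the submitters' processing notes, and the matrices held called cells with at least 500 UMIs. No replicate exists, so no test between groups was run. Members, marker and pathway lists were chosen with earlier results of these data known. All 8 members were named, and of a pathway list up to 4 genes past 2-fold.

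A barcode was kept if it had 200 genes or more and no more than 10% of its UMIs from mitochondrial genes, which left 7086 and 5729. Analyses ran in Python 3.11.15 with scipy 1.17.1, and clustering in scanpy 1.11.5 with leidenalg 0.10.2. Scrublet scored doublets per library, and the highest 0.8% per 1000 barcodes were removed, 440 and 278. Both libraries were clustered jointly (2000 variable genes, 30 components, 15 neighbours, Leiden resolution 1) without interferon-linked, sex-linked and technical genes, 1069 in all. The 8 members and the listed pathway genes were also left out of clustering, and levels by class are descriptions. A cluster took the class with the highest mean fold of its markers, at least 3 of them detected at a log2 fold of 0.5 or more in 10% of cells. Monocyte and macrophage names shade into each other: at resolution 2 a Ccl24 and Ccl7 cluster was named macrophage. The list of interferon-linked genes and the naming rule for erythroid cells were changed after the data were seen, and the shorter list (1024 genes) is kept as an alternative. A gate on marker UMIs in each cell, used as an alternative, placed 11302 of 12097 cells, with 1506 within 1 marker of its limit. Of 19 marker lists, 1 marker was not in the feature table.

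UMIs were summed per class and library and divided by the class total to give CPM, with exact Poisson intervals. Ratios were taken from CPM with exact conditional intervals, and log2 ratios added 0.5 UMI to each sum. Genes with at least 20 UMIs over both libraries were counted. Shares of cells have exact Clopper-Pearson intervals, and thinned shares leave out cells under 1000 UMIs. A count of 0 was given an upper limit of 3 UMIs of the class total. Coordinates are from GENCODE M21 (GRCm38), which held 98.7% of the identifiers. The ratio and interval code was tested on simulated data.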

Additional observations from a re-analysis of the deposited data

Results flagged for a closer look

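For 2 genes the ratio between the libraries pointed opposite ways in 2 cell classes with counting intervals on either side of no change. The log2 ratio of Il12b was 4.89 higher in cDC2 than in migratory DC, but all 21 cDC2 UMIs of the library labelled knockout lay in 1 cell. That of Il15ra was 1.68 higher in monocytes than in migratory DC, with UMIs in 168 monocytes and 91 migratory DC of the library labelled knockout. Within a sex the Il15ra ratios were not opposite: they were 3.24 in monocytes and 1.22 in migratory DC among Xist cells, and 0.91 and 0.68 among Y-linked cells. The mean of per-cell CPM gave a log2 ratio of -0.041 in migratory DC. Neither difference was tested, since each group is 1 pool.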

How the results depend on the processing

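No paired analysis was possible because each group is 1 library, and for the same reason no replicate could be left out. Log2 ratios are the library labelled knockout over control, with values for mononuclear phagocytes unless a class is named.
Sex moved the most results. In Y-linked cells the ratio turned to -0.23 for Il27 (in monocytes it stayed at 0.82), -0.20 for Il15 and -0.27 for Il15ra, to -0.51 for Il15 and -0.054 for Il15ra in monocytes, and to -2.50 for Il10 in T cells, while Usp18 was 0.81 and Il12rb2 in NK cells 0.57. In Xist cells it was 1.42 for Il15, 1.55 for Il15ra, 1.34 for Il10 and 2.73 for Usp18, turned to 0.73 for Il12b and 0.24 for Il15ra in migratory DC, and was 0.89 for Ebi3 there and 0.50 for Il12rb1 in T cells. The cause was not tested.
Clustering each library on its own gave 0.80 for Il15, 0.53 for Il15ra, 1.33 for Il10 and 1.84 for Usp18. The shorter list of left-out genes gave 0.78, 0.57 and, for Usp18, 1.78. Each of these settings left a cluster led by Ddx4 and Kdr unnamed, so its cells were not in these values. It held 135 cells of the library labelled knockout in the first setting, and 141 with 1 control cell in the second. Without the Ccl24 and Ccl7 cluster the values were 0.74, 0.67, 1.27 and 1.74 for the same 4 genes, and with the 8 clusters weighted equally Il15ra was 0.66 and Il10 1.20. A pseudocount of 5 CPM gave 0.73 for Il15ra, 1.01 for Il10 and 2.14 for Usp18, and a mitochondrial limit of 5% gave 2.64 for Usp18. Thinning to 1000 UMIs gave -0.30 for Il12b and -0.62 for Ebi3 in migratory DC, and 3.22 for Usp18. In monocytes thinning gave 0.78 for Il15, 0.74 for Il15ra and 0.22 for Il27, against 1.44, 1.27 and 0.90 at full depth. For Il15 in macrophages it gave 1.07, against 0.43. The mean of per-cell CPM gave -0.0125 for Il12b in migratory DC. The shorter list, the equal weighting, and leaving out the Ccl24 and Ccl7 cluster, the shallow cluster or cells with T- or NK-cell markers were chosen after seeing the data.
Of 16 alternatives each, Il15 was under 2-fold in 7, Il15ra in 10, Il12rb1 in 8 and Il10 in 0, and Il12rb2 in T cells in 8 of 12. With a minimum of 1 UMI the members counted as higher numbered 5, and 3 in migratory DC. Low depth limits Il27, Il12rb1 and Il12b outside migratory DC.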
